A study of Mus musculus with 6 samples.

Results

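The genes described here are 36 members of the Wnt pathway, chosen by name as ligands, receptors, secreted inhibitors, dishevelled proteins, parts of the beta-catenin destruction complex and nuclear factors. A probe was paired with 29 of the 36, among 37939 named genes and unnamed probes on the array. Wnt5a, Fzd5, Fzd7, Sfrp1, Axin1, Apc and Btrc had no paired probe and were not analysed here, so the destruction complex was read through Axin2 and Csnk1a1 alone. RNA came from crypts of the middle small intestine of 6 C57BL/6 mice aged 120 days, 4 labelled male and 2 without a sex label (LOI(-) 3 and LOI(+) 2). Crypts were cut by laser from frozen sections, 5000 to 13000 a mouse. The 3 LOI(+) mice carried a maternally inherited deletion of H19 and the methylated control region upstream of it, which activates the maternal copy of the growth factor gene Igf2 (loss of imprinting). The 3 LOI(-) mice were wild type. The deletion is carried in the germ line, so crypt cells are not its only site, and no probe was paired with H19, so the labels were not checked against it. Each mouse had its own 2-colour Agilent array, with crypt RNA in Cy3 and, in Cy5, a commercial reference (Universal Mouse Reference RNA) pooled from 11 lines of cultured cells.

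Wnt ligands bind a frizzled receptor and its co-receptor Lrp5 or Lrp6. Through dishevelled, they stop a complex that includes Axin, Apc and casein kinase from marking beta-catenin for destruction. Beta-catenin then enters the nucleus and switches on target genes with the Tcf and Lef factors. In the intestinal crypt this signal maintains the stem cells, and Paneth cells and the surrounding stroma are known sources of ligand. Several targets are themselves inhibitors of the pathway, among them Axin2 and Nkd1, and Sp5 is a transcription factor induced by the signal in many tissues.

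Sp5 and Wnt11 had the highest ratios to the reference among the 29 genes. They were also the 2 members whose promoter window held the motif CTTTGAT, a form of the Tcf and Lef recognition sequence, searched on both strands (ATCAAAG on the other). A window ran from 250 bases before to 50 after a RefSeq start site in GRCm38.p6. Of 22 probed members with such a window, 2 (9.09%) held the motif, against 1160 of 27025 genes (4.29%) in the whole promoter table. The 250 bases before the start are printed for both genes, with the motif in capitals, together with those of Axin2, the most used reporter of the pathway, whose window had no such letters. A match is a description of these letters and no evidence of binding, and the absence of one covers this window only.
Sp5, chr2:70474673-70474922, plus strand: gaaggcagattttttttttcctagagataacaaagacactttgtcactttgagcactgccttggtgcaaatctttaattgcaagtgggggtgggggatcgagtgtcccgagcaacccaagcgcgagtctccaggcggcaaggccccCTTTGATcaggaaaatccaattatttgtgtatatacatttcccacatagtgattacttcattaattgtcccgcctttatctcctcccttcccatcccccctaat
Wnt11, chr7:98834862-98835111, plus strand: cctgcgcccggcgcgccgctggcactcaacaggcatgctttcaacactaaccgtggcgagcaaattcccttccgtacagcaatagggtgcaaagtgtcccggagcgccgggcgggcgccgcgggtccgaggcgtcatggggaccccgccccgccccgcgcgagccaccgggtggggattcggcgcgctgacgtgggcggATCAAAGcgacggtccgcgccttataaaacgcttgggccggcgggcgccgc
Axin2, chr11:108920099-108920348, plus strand: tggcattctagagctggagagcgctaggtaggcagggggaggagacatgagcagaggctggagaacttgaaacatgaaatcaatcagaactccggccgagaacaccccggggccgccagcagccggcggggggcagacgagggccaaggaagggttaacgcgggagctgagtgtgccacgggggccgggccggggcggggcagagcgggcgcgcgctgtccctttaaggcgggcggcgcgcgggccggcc
The motif of Sp5 ended 97 bases before the start site, and that of Wnt11, on the reverse strand, 44 bases before it. A second Wnt11 start site in the table held none.

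The signal behind these values was low for most members. Across the arrays, the median Cy3 signal of all features was 552 to 603, the median local background 387 to 391, and the 95th percentile of 314 negative control features 439 to 449. Cy3 was above that percentile on each array for 27 of the 29 members, against 91.6% of all features. Lef1 was above it on 0 of 6 arrays and Dkk1 on 5 of 6, so the Lef1 values given below are bounded by background. For Lrp6, Dkk1, Wif1, Axin2, Lef1, Tcf7l1 and Nkd2 the Cy3 signal stayed under 1.1 times the percentile on every array. Lrp5, Dkk2, Dvl1 and Dvl2 were the members above 1.5 times it on every array. No member was saturated on any array. As a check of the labelled tissue, 11 of 14 measured markers of intestinal epithelium were at least 2-fold above the reference on each array, with a median log2 ratio of 3.34. Fibroblast markers had a median log2 ratio of -1.20, but the reference itself includes fibroblast lines. Smooth muscle markers had a median of -0.34, immune markers -0.037, endothelial markers 0.033 and enteric glial and neuronal markers 0.068. These ratios are against the pool and do not measure how much of such cells the crypt RNA held. Array images were extracted on 1 day, those of LOI(-) before those of LOI(+), and the order of extraction cannot be told apart from the group.

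**Figure D1:**
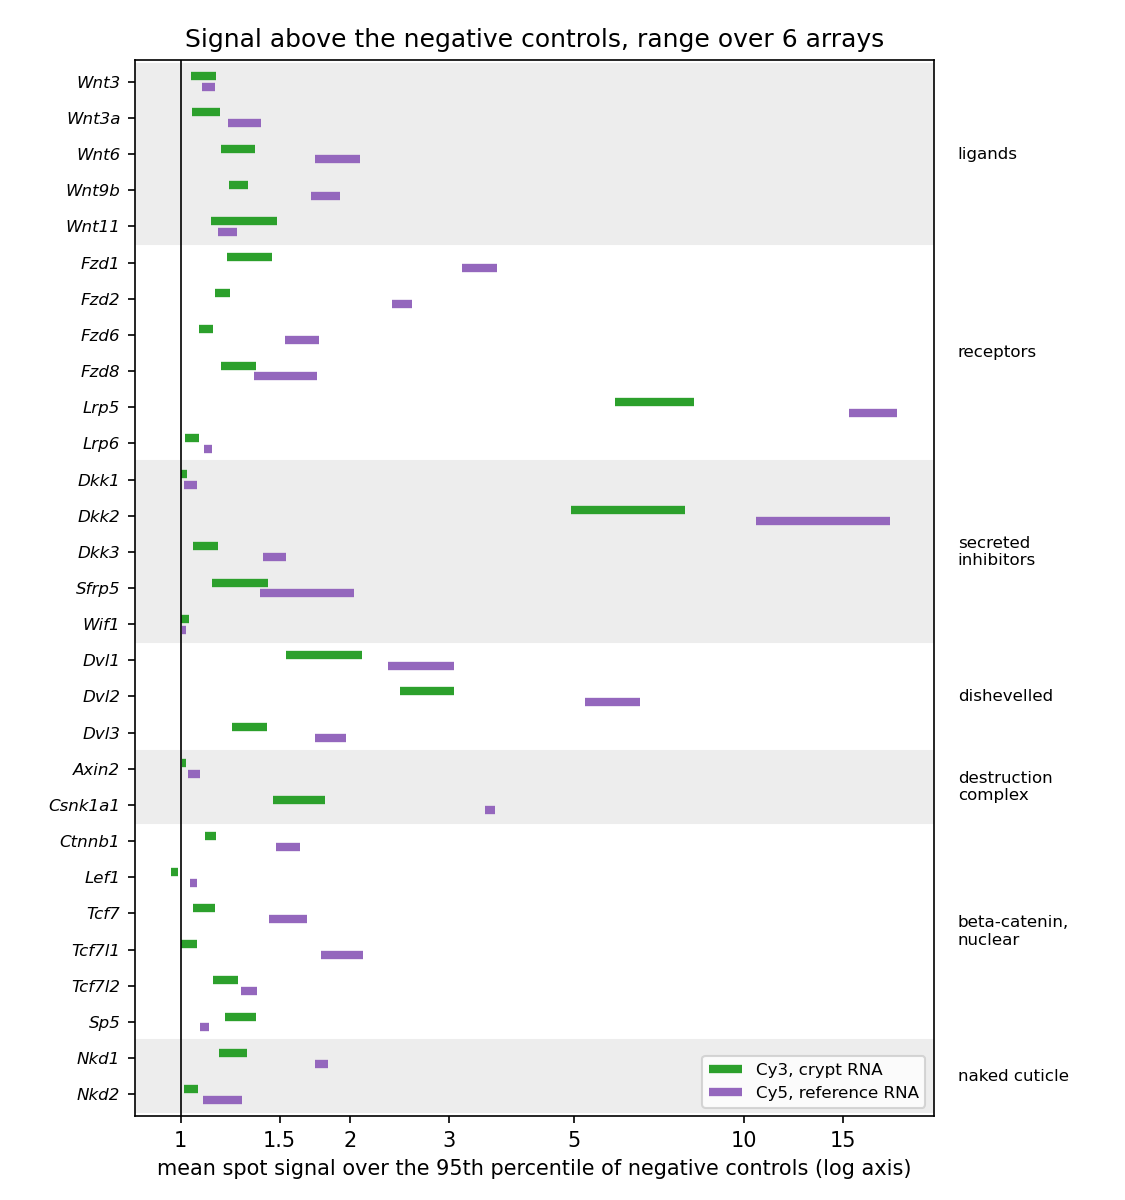
Range over 6 arrays of the mean spot signal of each member, in Cy3 (crypt RNA) and Cy5 (reference RNA), divided by the 95th percentile of the negative controls of that array and channel, on a log axis. Lef1 lies below 1 in Cy3 on all arrays, and 7 members stay under 1.1, among them Axin2 and Tcf7l1.

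The first comparison asks which pathway genes the crypts hold at higher or lower levels than the reference pool. Ratios are log2 of Cy3 over Cy5, and a gene was called where limma's adjusted p (Benjamini-Hochberg over 37939 features) was under 0.05 and all 6 arrays lay past 1 on the log2 scale, a 2-fold difference, in the same direction. Sp5 alone was called above (3.45% of members, against 2.87% of all features), and Fzd1, Fzd2 and Tcf7l1 were called below (10.3%, against 3.78%). All members are named genes, which were called more often than unnamed probes. Of 12354 named genes, 587 were called above and 738 below. Of the 29 members, 6 had a ratio above 0 on every array, 11 below 0 on every array and 12 had both signs. A total of 18 members had a mean within 0.3 of the reference in either direction. Dyes were not swapped and the reference is a single pooled RNA, so dye bias and the spread of the reference are not covered by these tests. The reference includes embryonic and fibroblast lines per the labels, and a ratio compares crypts with that pool, not with another tissue. Fewer cells of a type and less RNA per cell cannot be told apart in such bulk RNA.

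**Figure D2:**
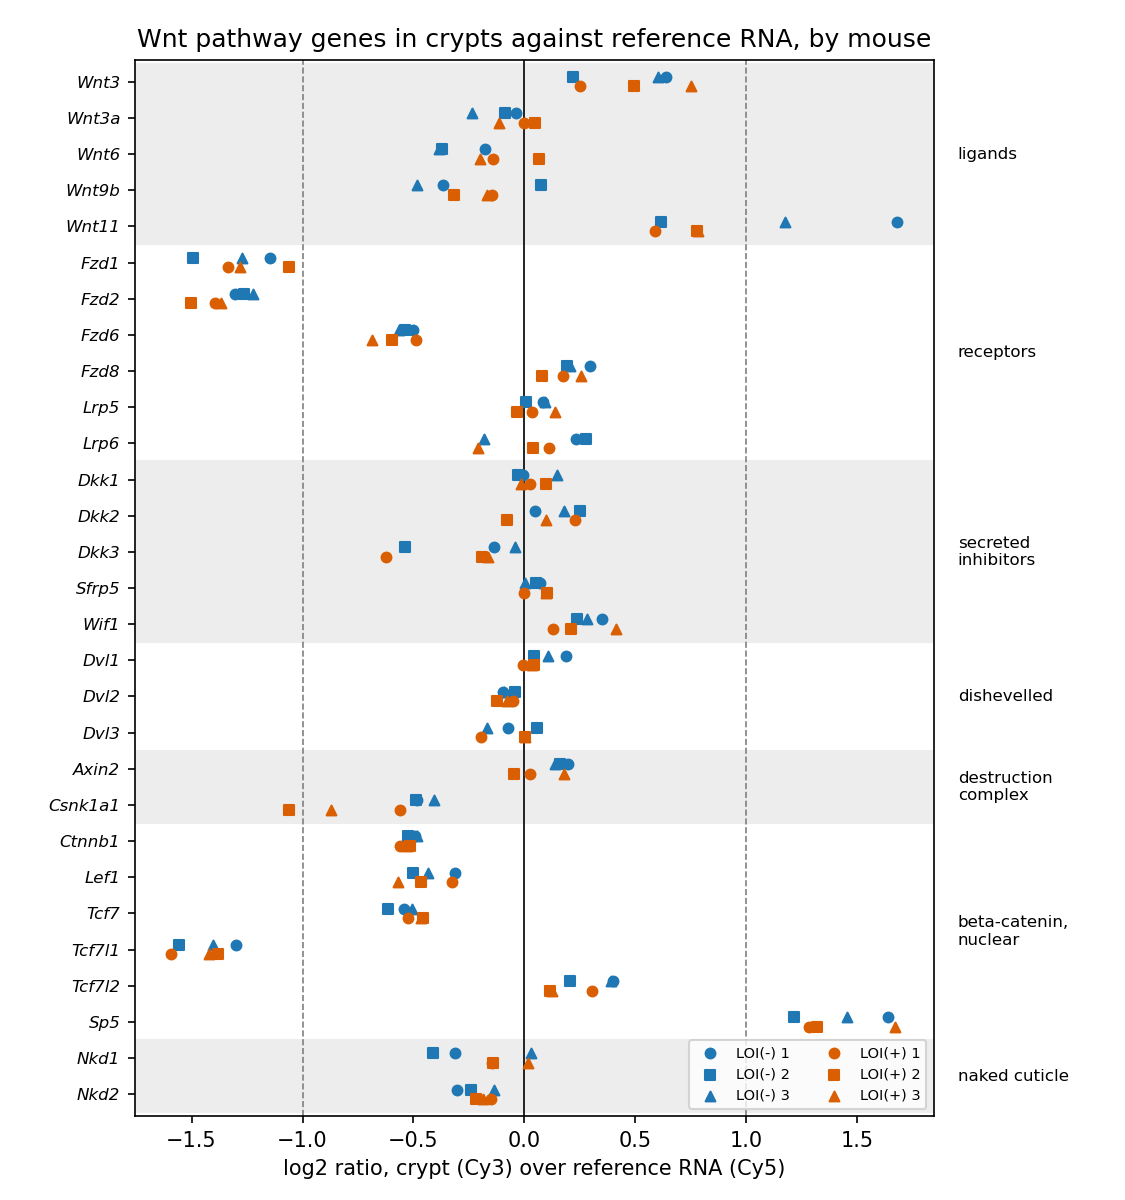
Log2 ratio of crypt RNA over reference RNA for 29 Wnt pathway genes, 1 symbol per mouse, grouped by role, with dashed lines at 2-fold. Sp5 lies right of 1 in all 6 mice, Fzd1, Fzd2 and Tcf7l1 lie left of -1, and the groups overlap for 26 of the 29 genes.

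Among the ligands, Wnt11 and Wnt3 were above the reference in all 6 mice. Wnt11, a ligand best known for signalling outside the beta-catenin branch, had log2 ratios of 1.68, 0.62 and 1.17 in LOI(-) and 0.59, 0.78 and 0.78 in LOI(+). Its mean of 0.94 is a fold of 1.91, and its spread within groups, an SD of 0.39, was the widest of the 29 genes. LOI(-) 1 stood highest and the groups overlapped. Wnt11 was not called, as LOI(-) 2 and every LOI(+) array lay under 1. Wnt3, the ligand made by Paneth cells, had a mean ratio of 0.49, with arrays from 0.22 to 0.75, and its other probe gave 0.46. The main Wnt3 probe had a Cy3 signal of 468 to 507, and the other probe was above the negative controls on 3 of 6 arrays. In Cy5, the denominator, Wnt3 had 429 to 449 and Wnt11 459 to 490. The 95th percentile of the negative controls in Cy5 was 388 to 393, so background limits the size of both ratios. The 9 measured Paneth cell markers had a median log2 ratio of 4.04 in the same RNA. Wnt9b, a ligand known from kidney development, had a mean of -0.23 with 1 array above 0. Wnt6, a ligand of epithelia, was at -0.20 and Wnt3a, the standard beta-catenin ligand, at -0.071, both with arrays on either side of 0.

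Among the receptors, Fzd2 was below the reference, Fzd1 and Fzd6 were below it by 1 of their 2 probes, and Fzd8 and the co-receptors lay near it. Fzd2 had log2 ratios of -1.30, -1.27 and -1.22 in LOI(-) and -1.40, -1.50 and -1.37 in LOI(+). Its mean was -1.34 (limma adjusted p 4.24e-08). Fzd1 had -1.15, -1.49 and -1.27 in LOI(-) and -1.33, -1.06 and -1.28 in LOI(+), all below 0 by over 1, for a limma adjusted p of 1.19e-06. A dimmer Fzd1 probe gave -0.018 in place of -1.26, so this gene's ratio depends on the probe, and with both probes averaged it was -0.64 and not called. Fzd6, a receptor linked to planar polarity, was at -0.56, below 0 in every mouse, though its dimmer probe gave -0.12. Fzd8 was above the reference in all 6 mice by a small margin, at 0.20. The co-receptors Lrp5 and Lrp6 had means of 0.053 and 0.045 with arrays of both signs. The Lrp5 probe was well clear of background, with Cy3 of 2655 to 3641, and its other probe gave 0.23.

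The 5 measured secreted inhibitors, which bind ligands or block Lrp5 and Lrp6, had a median ratio of 0.053. Wif1, which binds Wnt proteins, was above 0 in all 6 mice at 0.27, but its Cy3 signal of 447 to 463 lay at the edge of the negative controls. Dkk3, a divergent dickkopf, was below 0 in all 6 mice at -0.28, with LOI(-) 2 at -0.54 and LOI(+) 1 at -0.62 well under the other 4. Dkk2, a blocker of Lrp6, had a mean of 0.12 and was bright in both channels, with Cy3 of 2193 to 3505 and Cy5 of 4132 to 7155. Whether this probe also binds other transcripts was not checked, so its signal may not be that of Dkk2 alone. Dkk1, the best known antagonist, had 0.037 and Sfrp5, a decoy of frizzled form, 0.053, both with arrays on either side of 0.

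The dishevelled proteins, which pass the signal from frizzled to the Axin complex, all lay within 0.1 of the reference. Dvl1 had a mean ratio of 0.068, Dvl2 of -0.079 and Dvl3 of -0.063. A dimmer Dvl2 probe gave -0.73.

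Of the 7 genes of the destruction complex and the nucleus other than Sp5, 5 had a ratio below 0, Lef1 among them at -0.43 with Cy3 at background. Csnk1a1, the kinase that primes beta-catenin, had -0.64 and Ctnnb1, which encodes beta-catenin, -0.52. Ctnnb1 also had the steadiest ratio of the members, with arrays from -0.56 to -0.49 and a within-group SD of 0.021. Its Cy3 signal was 491 to 514, not far above the negative controls, and its Cy5 signal was 580 to 641. How far background sets the size and spread of the Ctnnb1 ratio was not tested. The 3 Tcf factors differed in their ratios. Tcf7l1, a repressor typical of embryonic cells, had -1.30, -1.56 and -1.40 in LOI(-) and -1.59, -1.38 and -1.42 in LOI(+), averaging -1.44 (limma adjusted p 1.97e-07). Its Cy3 signal, 449 to 473, was at the edge of the negative controls while its Cy5 signal was 689 to 822, so background limits the size of the ratio. Tcf7 was at -0.52. Tcf7l2, the main Tcf of the intestinal epithelium, was above 0 in all 6 mice at 0.26. Each ratio is against the pool, so these values do not order the 3 genes by abundance in the crypt.

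Feedback genes induced by the pathway had unlike ratios. Sp5 had 1.64, 1.22 and 1.45 in LOI(-) and 1.28, 1.32 and 1.67 in LOI(+). Its mean of 1.43 is a fold of 2.70, for a limma adjusted p of 2.20e-06, and the gene lay at the 97.5th percentile of all features. Its Cy5 signal was 421 to 442, against 388 to 393 for the 95th percentile of the negative controls, so the denominator of this ratio lay close to background. Axin2 had a ratio of 0.11, with Cy3 of 447 to 456 and Cy5 of 406 to 425, close to the negative controls in both channels. Nkd1 and Nkd2, which bind dishevelled, were at -0.16 and -0.21, Nkd2 below 0 in all 6 mice. Without background correction, ratios shrank toward 0 and none of Sp5, Fzd1, Fzd2 and Tcf7l1 was called, at 0.42, -0.66, -0.57 and -0.48.

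The second comparison asks whether loss of imprinting of Igf2 goes with a change in these genes in the crypt. None of the 29 members passed an adjusted p of 0.05 in limma (0% of all features did), and the smallest over all features was 0.80. Unadjusted p-values under 0.05 came from 2 members, both lower in LOI(+), which is 6.90% of them against 6.15% of all features. Lower calls at that level made up 2.23% of all features and higher calls 3.92%. The groups did not overlap for 3 members (10.3%, against 11.3% of all features), and LOI(+) was lower in each, as it was for 4.97% of all features, while 6.34% lay higher. Taken over both directions, these shares lie near those of all features. In the lower direction alone they are above them (6.90% against 2.23%, and 10.3% against 4.97%). Those lower shares rest on 2 and 3 genes, too few to show a direction. The mean was lower in LOI(+) for 19 of the 29 (65.5%, against 48.8% of all features), with a median difference of -0.034 against 0.0027 over all features. That median turned to 0.0054 without LOI(+) 1, where 14 members had the lower mean.

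**Figure D3:**
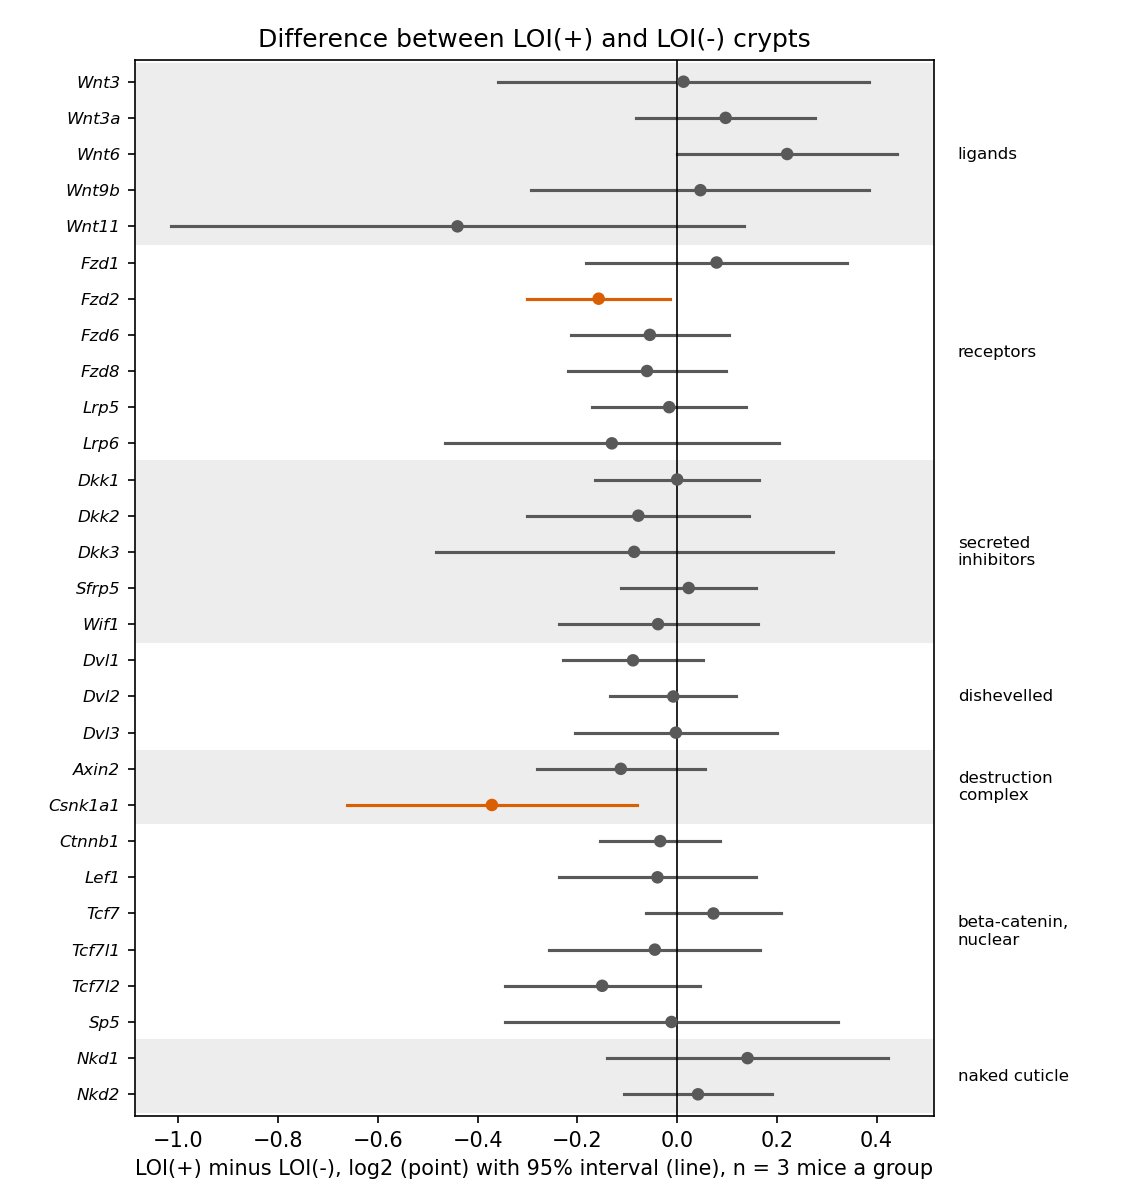
Log2 difference between the groups (LOI(+) minus LOI(-)) and its 95% interval from limma, n = 3 mice a group, by role. Csnk1a1 and Fzd2, in orange, have an unadjusted p under 0.05, and 27 of the 29 intervals hold 0.

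Csnk1a1 had the smallest p of the 29. Its log2 ratios were -0.49, -0.49 and -0.41 in LOI(-) and -0.56, -1.06 and -0.87 in LOI(+). The LOI(+) arrays were all lower, LOI(+) 1 by a small margin. The difference was -0.37 ± 0.12 (SE, n = 3 a group), a fold of 1.29, for an unadjusted p of 0.019 and an adjusted p of 0.80 in limma. Left-out arrays moved it from -0.26 without LOI(+) 2 to -0.51 without LOI(+) 1, and its unadjusted p rose past 0.05 without LOI(-) 3 (0.058) or LOI(+) 3 (0.056). The raw Cy3 signal was 807, 701 and 745 in LOI(-) and 757, 648 and 650 in LOI(+), which overlap, while Cy5 stayed between 1367 and 1411.

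Fzd2 differed by -0.16 ± 0.061, a fold of 1.12 (limma unadjusted p 0.036, adjusted p 0.80). The unadjusted p was above 0.05 without any one of LOI(-) 2 (0.074), LOI(-) 3 (0.10), LOI(+) 1 (0.055) and LOI(+) 2 (0.12). The raw Cy3 signal of Fzd2 was 547, 517 and 518 in LOI(-) and 522, 522 and 510 in LOI(+), which overlap. It lay at 1.15 to 1.23 times the negative control percentile. The 6 log2 ratios of Fzd2, given above, did not overlap between the groups. The gap between the nearest arrays, -1.30 and -1.37, was small. For Dvl1, also without overlap, LOI(-) had 0.19, 0.045 and 0.10, and LOI(+) had -0.0063, 0.044 and 0.033. The nearest Dvl1 arrays were almost equal, and its difference of -0.088 ± 0.059 had an unadjusted limma p of 0.18. The probes of Fzd2 and Dvl1 are shown because each value rests on a single 60-base oligonucleotide, printed 5′ to 3′.
Fzd2 probe: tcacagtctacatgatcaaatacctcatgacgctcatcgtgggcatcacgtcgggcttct
Dvl1 probe: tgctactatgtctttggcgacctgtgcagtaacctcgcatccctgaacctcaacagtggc

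Marker genes of 10 cell types were read beside these values, with normalized Cy3 signal summed over each list. Over all features, 48.8% had a lower mean in LOI(+), and 2.23% were lower and 3.92% higher at an unadjusted p under 0.05. The sums were lower in LOI(+) without overlap for 4 of the 10 lists. Of all features, 4.97% were lower without overlap, counted on log2 ratios and not on sums. By median log2 ratio the epithelial list overlapped, with 3.27 to 3.54 in LOI(-) and 3.17 to 3.35 in LOI(+). So did the Paneth cell list, with 3.86 to 4.46 and 3.53 to 4.11, while the fibroblast and smooth muscle lists did not. Fibroblast sums were 6190 to 6626 in LOI(-) and 5361 to 5816 in LOI(+), with a lower mean for 8 of 11 genes, 0 of them at that level. Smooth muscle sums were 5907 to 7348 and 5266 to 5739, with 7 of 8 genes lower and 2 at that level, though Lmod1 was above the negative controls on 0 arrays and Cald1 on 2. Epithelial sums were 160360 to 172864 and 137662 to 148587, with 12 of 14 genes lower and 4 at that level. Krt19 makes up a large part of the epithelial sum and was saturated in Cy3 on 2 arrays. Paneth cell sums were 189900 to 272893 and 172990 to 187277, with 6 of 9 genes lower and 0 at that level. The sums of the other lists overlapped. Among these, 8 of 9 immune markers and 5 of 6 goblet cell markers had a lower mean in LOI(+), 2 of each at that level. Of 5 villus enterocyte markers, all had a higher mean, 1 at that level. Of 7 crypt stem cell markers 6 had a higher mean, while their sums were 10023 to 10574 in LOI(-) and 9900.03 to 10073 in LOI(+). The stem cell marker with the lower mean was Axin2, itself a member of the Wnt genes described here. The lists are not fully separate, as Lyz2 is in both the Paneth cell and the immune list. Endothelial and glial markers had 4 of 6 and 1 of 5 genes lower. The part of these cell types in the Csnk1a1 and Fzd2 values was not tested.

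Among the ligands, Wnt6 had the largest positive difference, 0.22 ± 0.094, a fold of 1.17, with an unadjusted limma p of 0.0505. Its ratios were -0.18, -0.37 and -0.39 in LOI(-) and -0.14, 0.068 and -0.20 in LOI(+), so LOI(-) 1 lay within the LOI(+) range. Wnt11 had the largest difference of any member, -0.44 ± 0.24, with an unadjusted limma p of 0.11 and a 95% interval from -1.01 to 0.13. It was -0.18 without LOI(-) 1 and -0.71 without LOI(-) 2, where the unadjusted p was 0.0042. Wnt3a read -0.037, -0.088 and -0.23 in the LOI(-) mice against -9.5e-05, 0.049 and -0.12 in the LOI(+) mice, which overlap, for a difference of 0.097 ± 0.076. Wnt3 and Wnt9b differed by 0.013 and 0.047, and Wnt9b by 0.21 without LOI(-) 2.

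The other members of the 8 with the smallest p were Tcf7l2 and Axin2. Tcf7l2 had 0.40, 0.21 and 0.39 in LOI(-) and 0.31, 0.12 and 0.12 in LOI(+), a difference of -0.15 ± 0.083. LOI(+) 1 lay inside the LOI(-) range, and without it the difference was -0.21 (unadjusted limma p 0.040). Axin2 had 0.20, 0.16 and 0.14 in LOI(-) and 0.024, -0.047 and 0.18 in LOI(+), a difference of -0.11 ± 0.071. LOI(+) 3 was as high as the LOI(-) mice, and the Cy3 signal of Axin2 was at most 1.02 times the negative control percentile, so background limits what this probe shows of the gene. Without LOI(+) 3 the Axin2 difference was -0.18 (unadjusted limma p 0.036).

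The remaining members lay between -0.13 for Lrp6 and 0.14 for Nkd1, which moved to -0.28 and 0.27 without LOI(-) 3. Sp5, the member furthest above the reference, differed by -0.011 ± 0.14, with a 95% interval from -0.34 to 0.32. The receptors Fzd1, Fzd6, Fzd8 and Lrp5 had differences of 0.079, -0.055, -0.060 and -0.016. The inhibitors Dkk2, Dkk3, Sfrp5 and Wif1 had -0.078, -0.086, 0.023 and -0.038, and Dkk1 had equal means of 0.037 in both groups. Dvl2 and Dvl3 had -0.0077 and -0.0025. Ctnnb1 was at -0.034 with an interval from -0.15 to 0.087, Tcf7 at 0.073, Tcf7l1 at -0.045, Nkd2 at 0.042 and Lef1, at background in Cy3, at -0.039. For 27 of the 29 members the 95% interval lay within 0.5 of 0 on the log2 scale, a fold of 1.41, and the exceptions were Wnt11 and Csnk1a1. With 3 mice a group such intervals bound the differences in measured ratio but do not show that the groups are alike. Lef1, Axin2, Dkk1, Wif1, Lrp6, Tcf7l1 and Nkd2 had Cy3 close to background. Their intervals bound the spot signals and not the change in the gene's RNA.

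A wider list of 110 other pathway genes, 69 of them with a probe, held none past an adjusted p of 0.05 in limma. Of the 69, 3 were higher and 1 lower in LOI(+) at the unadjusted level, where 3.92% and 2.23% of all features stood, so these counts lie near the background. Among 14 measured target genes, the first by p were Tiam1, an activator of Rac, at 0.47 ± 0.079 and Cdx1, an intestinal homeobox gene, at -0.33 ± 0.11. Tiam1 had log2 ratios of -1.24, -1.34 and -1.20 in LOI(-) and -0.78, -0.92 and -0.69 in LOI(+), without overlap and with an unadjusted limma p of 0.000604. Cdx1 had 0.83, 1.01 and 1.19 in LOI(-) and 0.81, 0.64 and 0.59 in LOI(+), also without overlap, though LOI(-) 1 and LOI(+) 1 were close. The same gene is among the epithelial markers counted above as lower at the unadjusted level. Among 12 nuclear cofactors the first by p were Ctnnbip1, an inhibitor that binds beta-catenin, at 0.32 ± 0.12 and Ctbp1, a co-repressor, at 0.18 ± 0.068. Both had an unadjusted limma p of 0.031 and an adjusted p of 0.80.

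The other lists held no gene at that level. The genes of smallest p were Wnt16 at 0.37 and Wnt10b at 0.078 among 9 other ligands, Notum, which inactivates Wnt proteins, at 0.061 and Porcn, which acylates them, at -0.038 among 3 processing genes, and Ror2 at 0.27 and Kremen2 at -0.16 among 5 other receptors. Rspo2 at 0.11 and Rspo3 at 0.075 led the 4 genes of the R-spondin axis, and Dkk4 at 0.21 and Frzb at 0.077 the 7 other inhibitors. Dkk4 was above the negative controls on 1 of 6 arrays. Csnk1e at -0.19 and Ppp2r5e at 0.23 led the 9 other genes of the destruction complex, and Scrib at 0.18 and Celsr1 at -0.44 the 6 planar polarity genes. Against the reference, 2 of the 69 were called above, the Paneth protease gene Mmp7 at 5.26 and the progenitor marker Prom1 at 3.32, and 8 were called below, where 2.87% and 3.78% of all features were called. Lgr5, the stem cell receptor for R-spondins, was chosen after its value was seen and had a mean ratio of 1.38. Its LOI(-) arrays read 1.48, 0.82 and 1.57, its LOI(+) arrays 1.54, 0.95 and 1.94, with overlap.

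**Figure D4:**
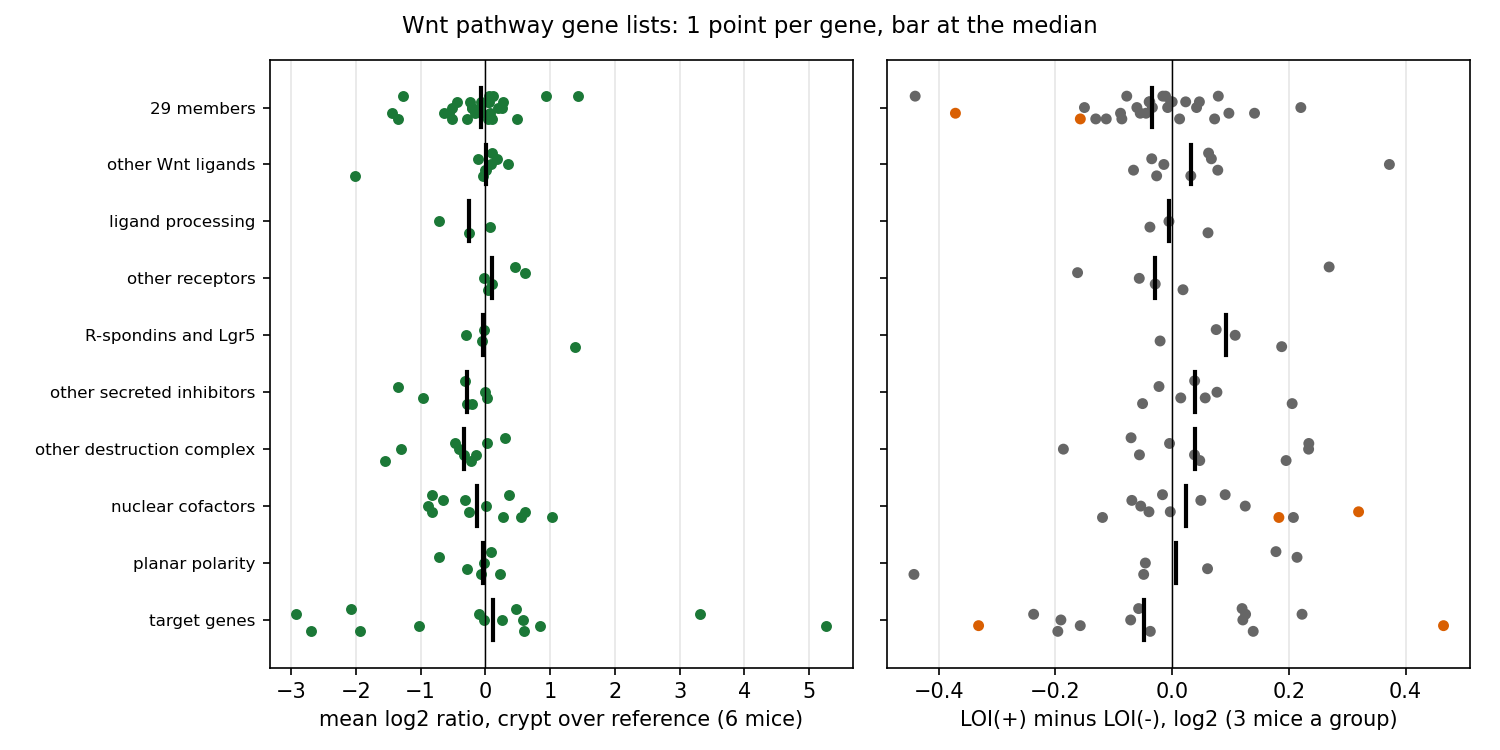
Left, mean log2 ratio of crypt over reference over 6 mice. Right, log2 difference between the groups (LOI(+) minus LOI(-)), with an unadjusted p under 0.05 in orange. Each point is a gene and each bar the median of a list; over the 10 lists shown, the medians of the differences lie between -0.047 for target genes and 0.092 for the R-spondin axis.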

How the data were processed

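The authors deposited 1 scanner file per array, whose spot intensity values come, per the file headers, from the Feature Extraction program of Agilent, with mean signal and local background unnormalized and the processed signal background-subtracted and LOWESS-normalized. Flags such as saturation come from the same deposited files. A deposited table of log10 values served as an alternative. Its columns followed the processed log10 ratio of Cy3 to Cy5 plus a per-feature mean of log10 Cy5, with r of at least 0.998, so its scale and direction are known, and the medians of its columns were 2.90. The authors' test is not used here.

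Mean signals were corrected with normexp (offset 50) and loess within arrays in limma 3.58.1 (R 4.3.3), leaving out outlier spots. Accessions of 15421 of 41006 probes gave 12354 symbols from the RefSeq table of GRCm38.p6, and 25585 stayed unnamed; a gene with several probes took the one with the highest mean Cy3. Log2 ratios from these deposited signals were compared between groups with lmFit and eBayes, two-sided, with Benjamini-Hochberg adjustment over all features; the mean ratio was tested against 0 in the same way. The fit was tested on simulated data. Every member is named; all array values are given for the 8 of smallest p and those called against the reference, and in other lists the 2 genes of smallest p. Motif search used the promoter table of RefSeq. Members and lists were chosen with earlier results of these data known. The labels name separate mice. Alternatives covered background, normalization, filters, probes, model and left-out arrays.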

Additional observations from a re-analysis of the deposited data

How the results depend on the processing

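Over 20 alternatives, no member passed an adjusted p of 0.05, where the smallest was 0.52, and no feature did, where the smallest lay between 0.12 and 1.00. At the unadjusted level the count of lower members was 2 as reported, 1 without background correction, in the Cy3 channel alone, in the unmoderated model and with the replicate block, 0 with only the mice labelled male, and 1 to 3 with an array left out. The count of higher members was 0 as reported, 1 with an offset of 16, without saturated probes, with all probes averaged and with only the mice labelled male, 2 in the Cy3 channel alone, and 0 to 1 with an array left out. The members with the lower mean in LOI(+) numbered 14 to 20 and the median difference ran from -0.047 to 0.0054 with an array left out. Without background correction 0 members were called above and 0 below the reference. Of the 29 differences, 12 kept their sign in every alternative, among them Csnk1a1 (-0.51 to -0.21), Fzd2 (-0.25 to -0.069), Wnt6 (0.084 to 0.29) and Wnt11 (-0.71 to -0.17), and 17 changed it at least once. The cause of these changes was not tested. Deviations from the group means correlated at -0.088, -0.25 and 0.35 between same-numbered mice, and at 0.45 between LOI(-) 2 and LOI(+) 1. With 3 mice a group these values cannot tell whether same-numbered mice share more than a number. The weak Cy3 signal over background limits Lef1, Axin2, Dkk1, Wif1, Lrp6, Tcf7l1 and Nkd2 most. It also bears on the others, as only Lrp5, Dkk2, Dvl1 and Dvl2 passed 1.5 times the negative control percentile on every array.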
